A study of Bos taurus with 8 samples.

Results

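VPREB3-positive resting B cells of cattle blood are described here by their transcripts without LPS and at 3 times of LPS stimulation. A barcode was taken as such a cell when it held 200 to 3000 genes, at least 1 UMI of MS4A1, at least 2 UMIs of CD79A and CD79B together, none of CD3E and CD14, at most 1 of CD83, at least 1 of VPREB3 and none of FCRLA. A UMI (unique molecular identifier) stands for 1 captured transcript. The rule found 654 cells among 30756 barcodes, of which 309 came from the no LPS library and 164, 136 and 45 from the 2 h, 4 h and 8 h libraries. The cells were chosen by the measured UMI counts of these 8 genes, so the levels of those genes are no results, and they were left out of every count of genes below.

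B cells recognise antigen through surface immunoglobulin, which signals by way of the CD79A and CD79B chains, and they carry the surface protein CD20, the product of MS4A1. VPREB3 belongs to the small immunoglobulin-like proteins named after the surrogate light chain of B cell precursors and binds newly made immunoglobulin chains inside the cell, while FCRLA is an intracellular relative of the Fc receptors that B cells make. LPS, a part of the outer membrane of Gram-negative bacteria, is sensed by TLR4 with its partner LY96 (MD-2), and CD180 with LY86 (MD-1) forms a related receptor on B cells.

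Blood was drawn from 4 lactating Holstein cows, 2 years old, mixed, and split into 4 equal parts. One part received no LPS, and the others received LPS at 2 µg/ml and 37 °C for 2 h, 4 h or 8 h before mononuclear cells (PBMCs) were isolated and each part was made into 1 scRNA-seq library. How long the part without LPS was incubated is not given in the sources used here, so LPS and time in incubation cannot be told apart. With 1 library for each treatment there was no test between treatments, and intervals cover counting error only.

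The 4 libraries held 3860 to 10429 barcodes and 30902952 to 63770426 UMIs, with the fewest of both at 8 h. Pairs of libraries shared 8 to 24 barcode sequences, and 0 of these were VPREB3-positive resting B cells in both. Wherever 4 values are given, they stand in the order no LPS, 2 h, 4 h, 8 h. The VPREB3-positive resting B cells summed to 1208193, 702280, 658334 and 235938 UMIs, so values at 8 h are the least precise. Their median depth was 3258, 3354.5, 3656 and 4725 UMIs per cell, and the median share of mitochondrial UMIs lay between 1.92% and 2.09%. 

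VPREB3-positive resting B cells made up 3.93% of the barcodes with 200 to 3000 genes without LPS (309 of 7866; exact binomial 95% interval 3.51% to 4.38%). After 2 h of LPS they made up 1.66% (1.41% to 1.93%), after 4 h 1.83% (1.54% to 2.16%) and after 8 h 1.31% (0.956% to 1.75%). The interval without LPS lay above those of the 3 LPS libraries, which overlapped each other. Without the limit on CD83 the share was 4.65%, 5.11%, 4.23% and 2.41%. Among B cells that met the MS4A1, CD79, CD3E and CD14 parts of the rule, the share with at most 1 CD83 UMI was 87.3% without LPS and 43.0%, 51.8% and 61.4% with LPS. Within those CD83-low B cells, 28.8% (26.1% to 31.6%), 23.5% (20.4% to 26.8%), 24.4% (20.9% to 28.2%) and 21.1% (15.8% to 27.2%) met the VPREB3 and FCRLA parts. B cells of the rule at any CD83 level were 15.6%, 16.4%, 14.5% and 10.1% of barcodes. The lower share at 2 h and 4 h thus went with more B cells past the CD83 limit, and that at 8 h also with fewer B cells of the rule among the barcodes. Since the rule made these shares, they are a description with no test.

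**Figure D1:**
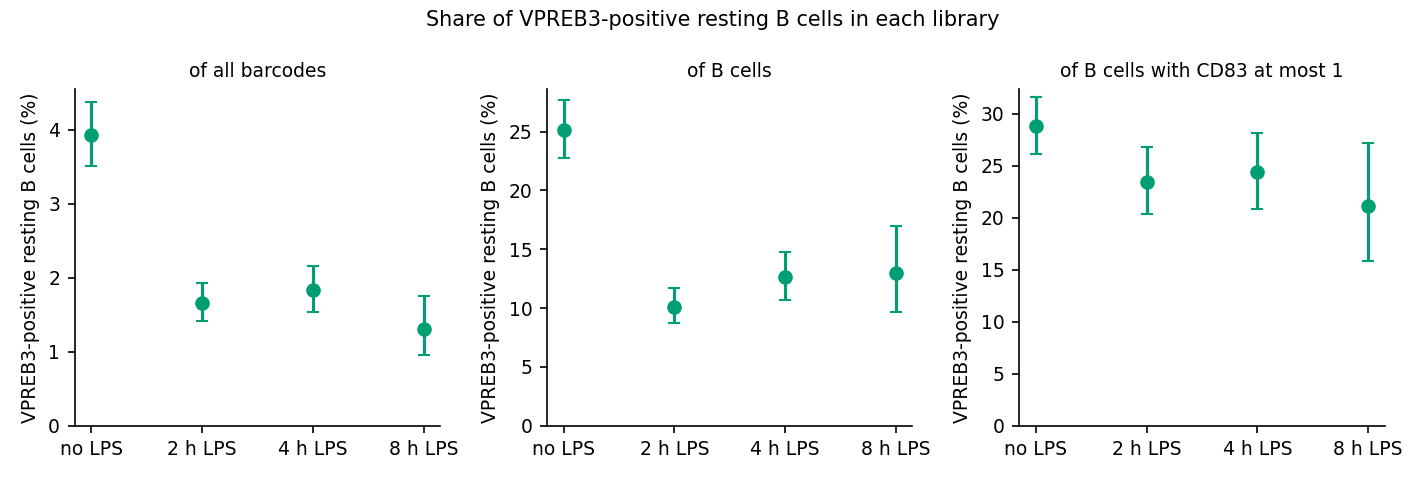
Share of VPREB3-positive resting B cells (%, vertical axis from 0) in each of the 4 libraries, of all barcodes with 200 to 3000 genes (left), of B cells (middle) and of B cells with at most 1 CD83 UMI (right). Points are shares and bars exact binomial 95% intervals; the share of all barcodes was 3.93% without LPS and 1.31% to 1.83% with LPS.

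The limits of the rule ran through a continuous range of counts. Over the 4 libraries 214 cells had a single VPREB3 UMI, 132 had 2 and 308 had 3 or more, while 577 cells met every other part with no VPREB3 UMI. A further 304 cells missed the rule for 1 FCRLA UMI and 190 for 2. Of the 654 cells 210 had 1 CD83 UMI, and 109 cells missed the rule with 2. Above 3000 genes 30 further cells met every other part.

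Genes outside the rule marked these cells as B cells. BLNK, an adaptor of B cell receptor signalling, was at 114, 108, 123 and 199 CPM, where CPM is the count of UMIs in 1000000 UMIs summed over the cells of a library. CD22, a brake on B cell receptor signals, was at 55.5, 64.1, 66.8 and 76.3 CPM. PAX5, the transcription factor that keeps B cell identity, was at 29.0, 42.7, 31.9 and 67.8 CPM. All 3 were found in each library, none was lower with LPS by 2-fold, and PAX5 was past 2-fold higher at 8 h on 16 UMIs. ELL3, an elongation factor and 1 of the markers named for these cells, had a UMI in 31.1, 29.9, 47.8 and 40% of them and in 0.650, 0.764, 1.15 and 1.43% of T cells, taken as cells with at least 2 CD3E UMIs and none of the B cell genes or CD14. MEF2C, a transcription factor of B cell activation, had a UMI in 30.1, 34.8, 30.9 and 40% against 0.115, 0.191, 0.362 and 0.842% of T cells. BOLA-DOB, a chain of the MHC class II peptide-loading regulator DO, had one in 73.5, 63.4, 70.6 and 75.6% against 2.37, 2.46, 2.89 and 3.11%. T cells were the deeper of the pair, with median depths of 4224, 4267, 4958 and 5550.5 UMIs. VPREB3 itself had a UMI in 0.689, 0.464, 0.625 and 1.77% of T cells and 3.30, 0.654, 2.44 and 7.81% of monocytes, whose median depths were 9852, 12608, 9603 and 9665 UMIs.

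Genes of B cell precursors were absent only in part. Besides VPREB3, the early B cell list had 7, 9, 7 and 7 genes with a UMI and 10, 8, 10 and 10 at 0. It reached 278, 249, 258 and 195 CPM in all. The same list was at 441, 504, 374 and 301 CPM in FCRLA-positive resting B cells and 1155, 1175, 1305 and 1120 CPM in T cells. In CD83-high B cells it was lower, at 188, 205, 172 and 161 CPM. The summed level of the list is thus no trait particular to the VPREB3-positive cells. Of its 4 genes tested against FCRLA-positive cells below, 2 were higher (IL7R and NEIL1) and 1 lower. RAG1 and RAG2, which recombine the immunoglobulin genes, and DNTT, which adds bases at the joints, had 0 UMIs in all 4 libraries, where 3 UMIs would be 2.48, 4.27, 4.56 and 12.7 CPM. TCL1A and CD93 were also at 0. CD9 was at 11.6, 7.12, 9.11 and 8.48 CPM and CD24 at 8.28, 11.4, 7.59 and 12.7 CPM, few UMIs in each library.

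Markers of other cell types were low in the sums. The T cell list reached 137, 151, 132 and 136 CPM in all, against 2654, 2536, 2676 and 2504 CPM in T cells, with 4, 5, 9 and 12 of its 20 genes in the tables at 0. The monocyte list reached 468, 1427, 532 and 365 CPM, against 85864, 85511, 79700.3 and 80293 in monocytes, and CD163 and CD14 were at 0 in each library, CD14 by the rule, with 2, 4, 6 and 5 of the 17 others at 0. The dendritic cell list lay at 117, 131, 147 and 136 CPM and the platelet and red cell list at 46.4, 54.1, 21.3 and 38.1 CPM. NK and cytotoxic genes reached 55.5, 96.8, 146 and 38.1 CPM, with NCR1, KLRD1 and KLRF1 at 0, and GNLY, an antimicrobial granule protein, gave 60 of their UMIs at 4 h. The part of these other cell types in the results was not tested. Plasma cell genes summed to 2520.3, 3118, 4607 and 1717 CPM, against 2058, 1998, 2001 and 1945 CPM in T cells and 2008, 1737, 1777 and 1942 CPM in CD83-high B cells. The level at 8 h was thus below both and the other 3 were above both, by the least without LPS.

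A few cells carried the plasma cell and chemokine UMIs. JCHAIN, the joining chain of secreted IgA and IgM, had at least 10 UMIs in 2, 4, 3 and 0 cells, and those cells held 85.1%, 97.3% and 97.9% of its UMIs in the first 3 libraries. CXCL8, the neutrophil chemokine IL-8, had at least 10 UMIs in 0, 4, 1 and 0 cells, which held 95.0% of its UMIs at 2 h and 86.7% at 4 h. Together these 2, 8, 4 and 0 cells gave 3.25%, 11%, 9.40% and 0% of the UMIs summed. Sums were therefore also taken without them, chosen with the values known, and the value without them is given beside the genes and lists described whose call or direction it changed. The cells were chosen by their JCHAIN and CXCL8 UMIs, so values without them are no test of these 2 genes.

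CCL2, a monocyte chemokine, had UMIs in both these B cells and T cells. It had a UMI in 58.3, 11, 5.88 and 33.3% of the VPREB3-positive cells and in 57.4, 14.8, 7.01 and 36.8% of T cells. Whether its UMIs here are background or expression was not tested. Its level was 243, 31.3, 12.2 and 80.5 CPM in these cells and 203, 36.0, 46.3 and 122 CPM in T cells.

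The first question was what LPS changed in these cells, set against the library without LPS. A gene counted as past the fold at a log2 ratio of CPM + 1 of at least 1 in size, among genes with at least 50 UMIs over both libraries. At 2 h 59 of 4011 genes rose past 2-fold (1.47%) and 22 fell (0.548%). At 4 h 94 of 3945 rose (2.38%) and 79 fell (2%). At 8 h 57 of 3353 rose (1.7%) and 112 fell (3.34%), but only 67 of these falls had a 95% counting interval below 0. The median over all genes was 0.03, 0.00 and 0.01 on the log2 scale, which scaling to CPM holds near 0. Scaling by TMM factors moved the 8 h median to -0.15, so list medians of that size at 8 h have no settled sign. Among genes with a symbol and at least 100 UMIs over both libraries, the 10 highest and 10 lowest ratios at each time are named below.

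Interferon-stimulated genes rose together, most at 4 h. ISG15, a ubiquitin-like protein joined to other proteins during interferon responses, was at 149.8, 826, 2992 and 279.7 CPM. Its log2 ratio to no LPS was 4.31 (95% interval 4.10 to 4.55) after 4 h, beside 2.45 (95% interval 2.22 to 2.71) after 2 h and 0.90 (95% interval 0.47 to 1.32) after 8 h. ISG15 was thus higher than without LPS in all 3 libraries, with a peak at 4 h and a fall toward 8 h. MX2, a dynamin-like GTPase that blocks viruses, was at 73.7, 134, 603 and 161 CPM, with a 4 h ratio of 3.02 (95% interval 2.70 to 3.38). MX1, of the same family, was at 113, 251, 523 and 165 CPM and its 4 h ratio was 2.19 (95% interval 1.91 to 2.50). For both, the 2 h and 8 h libraries lay between no LPS and 4 h. IRF7, the transcription factor that amplifies type I interferon, was at 81.9, 152, 327 and 93.2 CPM (4 h ratio 1.98, 95% interval 1.64 to 2.35). HERC5, the ligase that attaches ISG15, was at 63.7, 98.3, 286 and 114 CPM (4 h ratio 2.15, 95% interval 1.77 to 2.57). Regulator, conjugation enzyme and effector thus all stood highest at 4 h. ISG20, an RNA-degrading enzyme, was at 63.7, 89.7, 252 and 97.5 CPM and shared that order (4 h ratio 1.97, 95% interval 1.59 to 2.39). EIF2AK2, the kinase PKR that senses double-stranded RNA, was at 45.5, 45.6, 159 and 50.9 CPM. It rose past 2-fold at 4 h alone, with a ratio of 1.79 (95% interval 1.32 to 2.31). IFIT1, which binds foreign RNA ends, had 3, 13, 62 and 3 UMIs, and RSAD2 (viperin) had 3, 5, 42 and 0, so both were scarcely seen outside 4 h. Of the 10 highest ratios at 4 h the other 3 were those of CXCL8 (3.07), JCHAIN (1.97) and DNAJC3, a chaperone of the endoplasmic reticulum (1.73). Without the JCHAIN- or CXCL8-rich cells they were 0.11, -0.83 and 1.05.

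Of 62 genes in the interferon-stimulated list, 31, 40 and 31 passed 50 UMIs at the 3 times. After 4 h, 26 of the 40 rose past 2-fold, beside 2.38% of all genes, and 0 fell past it, with a median log2 ratio of 1.47. The medians at 2 h and 8 h were 0.15 and 0.41, with 2 and 4 genes past the fold, beside 1.47% and 1.7% of all genes. A list gene passed the count minimum more easily where it was high, so these counts describe the members tested. Some members moved little, such as IRF9, a transcription factor of the interferon response, at 208, 211, 229 and 165 CPM.

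A smaller group was past 2-fold at 8 h. IFIH1, the RNA sensor MDA5, was at 62.1, 103, 169 and 153 CPM, with an 8 h ratio of 1.28 (95% interval 0.68 to 1.89). GBP2, an interferon-induced GTPase, was at 90.2, 98.3, 128 and 208 CPM and was highest at 8 h (log2 ratio 1.19, 95% interval 0.69 to 1.70). WARS1, the tryptophan tRNA ligase that interferon induces, was at 118, 129.6, 242 and 284 CPM (8 h ratio 1.26, 95% interval 0.82 to 1.69). IFITM1, a membrane protein that blocks virus entry, was at 62.1, 69.8, 141 and 127 CPM, a level at 8 h close to that at 4 h. MX2 was the fourth of the list past 2-fold at 8 h (1.12). Under TMM factors MX2 and IFITM1 came under 2-fold at 8 h (0.96 and 0.87), which left 2 genes of the list past it, and under DESeq2 factors IFITM1 did (0.94).

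**Figure D2:**
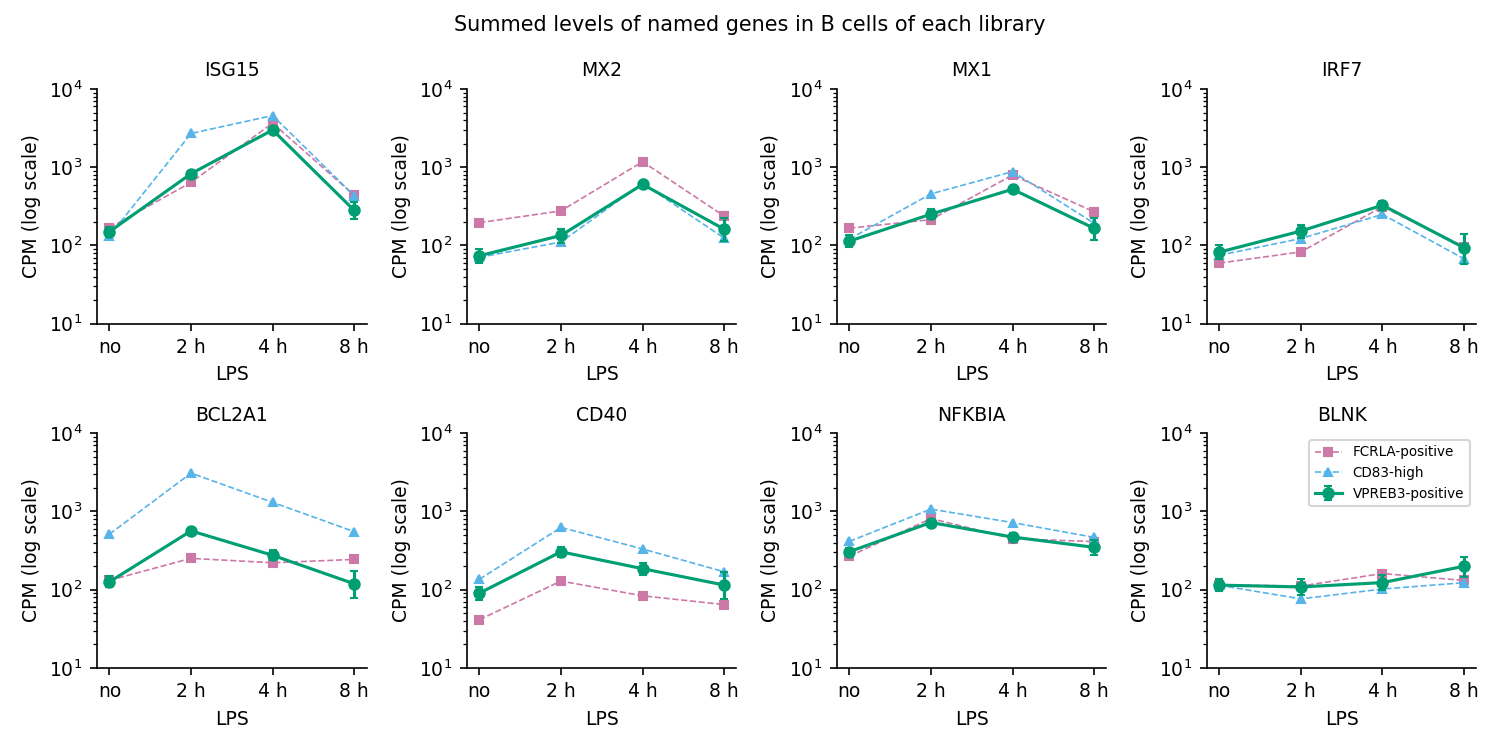
CPM on a log axis of 8 genes in each of the 4 libraries by LPS time. Green circles with exact Poisson 95% bars are VPREB3-positive resting B cells, pink squares FCRLA-positive resting B cells and blue triangles CD83-high B cells (no bars drawn); ISG15 in the VPREB3-positive cells was 826 CPM at 2 h and 2992 CPM at 4 h, while BLNK stayed between 108 and 199 CPM.

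The rise at 4 h was spread over many cells. After each cell was reduced to 1000 UMIs drawn at random, which left out 1 shallower cell without LPS, the median cell held 5, 6, 9 and 6 UMIs of the 55 interferon-stimulated genes in the tables. The cell at the 90th percentile held 10, 12, 23 and 10.6, and the highest cell 23, 59, 50 and 13. Cells with at least 10 such UMIs made up 12.3% without LPS (8.88% to 16.5%) and 47.1% after 4 h (38.5% to 55.8%), beside 18.3% after 2 h (12.7% to 25.1%) and 17.8% after 8 h (8.00% to 32.1%). The 4 h interval lay above those of the other 3 libraries, and at 2 h a single cell with 59 stood out. The share at the same depth was 20.9, 29.7, 75.5 and 39.0% in FCRLA-positive resting B cells, 10.3, 29.8, 57.6 and 20.9% in CD83-high B cells and 4.97, 8.56, 27.9 and 8.97% in T cells. In each of these classes, too, the share was highest at 4 h. For ISG15 alone the share of VPREB3-positive cells with a UMI was 9.09, 17.1, 50 and 17.8% at 1000 UMIs per cell, against 5.05, 13.1, 35.8 and 11.4% of T cells.

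**Figure D3:**
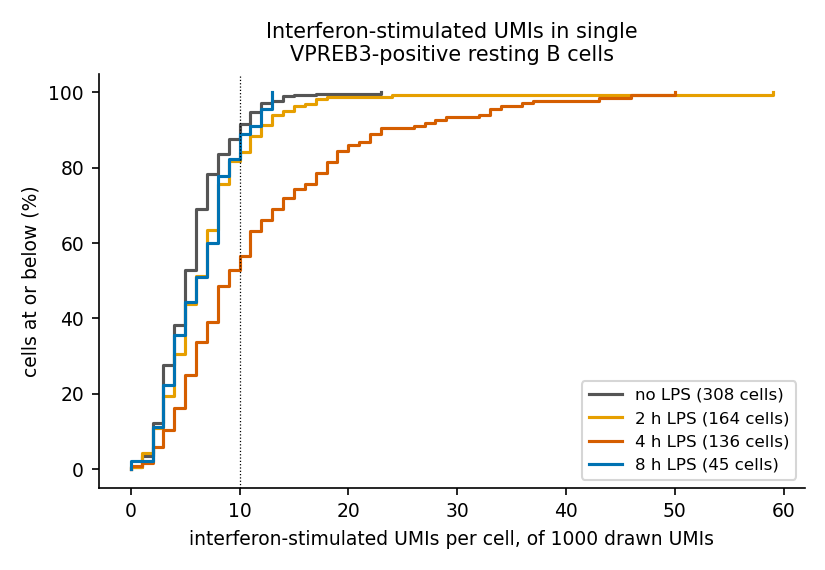
Cumulative share of VPREB3-positive resting B cells (%, vertical axis) by their number of interferon-stimulated UMIs out of 1000 drawn UMIs (horizontal axis), 1 line for each library. The dotted line marks 10 UMIs; the 4 h line runs to the right of the others, with a median of 9 UMIs per cell against 5 without LPS.

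Targets of NF-kB, the transcription factor activated by Toll-like receptors, rose earlier. Of 28 members of the list tested at 2 h, 9 rose past 2-fold and 25 had a ratio above 0, with a median of 0.83, beside 1.47% of all genes past the fold. The monocyte list stood higher in the same library, at 1427 CPM against 468 CPM without LPS, by CXCL8 and IL1B, the 2 of its 3 tested genes that rose past 2-fold. Without the 8 JCHAIN- or CXCL8-rich cells of that library the monocyte list was at 211 CPM, 0 of its 3 genes rose past 2-fold, and 6 of 26 NF-kB targets did, with a median of 0.76. The median was 0.52 at 4 h (5 of 25 rose past the fold) and 0.16 at 8 h (0 of 20), beside 2.38% and 1.7% of all genes. BCL2A1, an anti-apoptotic relative of BCL2, was at 126, 564, 275 and 119 CPM, with a 2 h ratio of 2.16 (95% interval 1.89 to 2.44). CD40, the receptor for T cell help, was at 90.2, 305, 185 and 114 CPM and its 2 h ratio was 1.74 (95% interval 1.42 to 2.10). Both were highest at 2 h, lower at 4 h and near the level without LPS at 8 h. TNFAIP3 (A20), an inhibitor of NF-kB signalling, was at 15.7, 66.9, 45.6 and 17.0 CPM (2 h ratio 2.02, 95% interval 1.29 to 2.94). NFKBIA, the inhibitor IkB-alpha, was at 305, 722, 471 and 348 CPM, and its 2 h ratio of 1.24 became 0.80 without the JCHAIN- or CXCL8-rich cells. NFKB1, the p105 subunit, was at 114, 214, 193 and 195 CPM, with an 8 h ratio of 0.77, 95% interval 0.26 to 1.26. BATF, a partner of AP-1 factors, was at 74.5, 168, 122 and 76.3 CPM and followed the 2 h peak.

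CD83 is itself induced by NF-kB, and the rule kept only cells with at most 1 CD83 UMI. Without that limit the 2 h ratio was 3.90 for BCL2A1, 2.56 for CD40 and 1.63 for NFKB1, and the list median was 1.28. The values above are thus those of B cells inside the limit and not of all VPREB3-positive B cells.

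IL1RN, PTX3, CXCL8, GRO1, CXCL2 and IL1B, which encode secreted proteins of inflammation, were among the 10 highest ratios at 2 h. CXCL8 was at 49.7, 1168, 424 and 84.8 CPM and IL1RN, the IL-1 receptor antagonist, at 5.79, 352, 25.8 and 25.4 CPM. Their 2 h ratios of 4.53 and 5.70 became 0.31 and 0.98 without the 8 JCHAIN- or CXCL8-rich cells. For PTX3, GRO1, CXCL2 and IL1B the ratio without them was 0.98, 0.45, -0.04 and 0.42. Few cells thus held most of these UMIs. The other 4 of the 10, CD69, ISG15, BCL2A1 and PLEK, kept ratios of 2.07, 2.37, 2.09 and 1.5. CD69, an early activation antigen that holds lymphocytes in tissue, was at 13.2, 121, 22.8 and 17.0 CPM. PLEK, a substrate of protein kinase C, was at 27.3, 119.6, 39.5 and 33.9 CPM, and for both the 2 h library stood far above the other 3.

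Of 22 B cell receptor signalling genes tested at 2 h 1 rose and 0 fell past 2-fold, shares near the 1.47% and 0.548% of all genes, so the count is no result about the list. The median was 0.01, -0.04 and -0.08 at the 3 times. The gene that rose was CR2, the complement receptor CD21, at 20.7, 48.4, 65.3 and 33.9 CPM, with ratios of 1.19 (95% interval 0.44 to 2.03) at 2 h and 1.61 (95% interval 0.91 to 2.43) at 4 h. LYN, a kinase that starts and restrains receptor signalling, was at 616, 634, 533 and 389.9 CPM. SYK, the kinase bound by CD79A and CD79B, was at 101, 112, 88.1 and 76.3 CPM. Neither kinase passed 2-fold at any time.

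Genes of MHC class II antigen presentation had medians of 0.03, -0.22 and -0.15. IFI30, a lysosomal reductase that unfolds antigens, was higher at 2 h, at 374, 1009.6, 643 and 377 CPM (ratio 1.43, 95% interval 1.26 to 1.61). BLA-DQB, a class II beta chain, was at 2145, 2224, 1718 and 1242 CPM and had an 8 h ratio of -0.79 (95% interval -0.97 to -0.61). BOLA-DRA, the DR alpha chain, was at 2604, 2963, 2503 and 1793 CPM, lowest at 8 h. CD74, the invariant chain, was at 2339.9, 2311, 2561 and 2602 CPM and differed little between libraries.

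Among 20 B cell transcription factors tested at 2 h, IRF4 and BCL11A rose past 2-fold and 0 fell, beside 1.47% and 0.548% of all genes. IRF4, which drives activated B cells and plasma cells, was at 29.0, 78.3, 68.4 and 38.1 CPM, with a 2 h ratio of 1.40 (95% interval 0.80 to 2.09) and 1.22 without the JCHAIN- or CXCL8-rich cells. BCL11A, a zinc finger factor of the B lineage, was at 25.7, 54.1, 39.5 and 50.9 CPM (2 h ratio 1.05, 95% interval 0.35 to 1.81). SPIB, an ETS factor of B cells, was at 118, 221, 95.7 and 93.2 CPM, highest at 2 h. ZBTB32, a repressor of proliferation, was at 62.9, 85.4, 24.3 and 38.1 CPM, lowest at 4 h. HHEX, a homeodomain factor, was at 143, 76.9, 83.5 and 110.2 CPM and was 1 of the 10 lowest ratios at 2 h, within 2-fold (-0.89).

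Genes of growth and ribosome synthesis had medians of 0.44, 0.25 and 0.22 over 22 genes, with 19, 17 and 18 above 0 and 1 past 2-fold at each time (CCND2, NOLC1 and GNL3). CCND2, a D-type cyclin, was at 119, 245, 216 and 114 CPM (2 h ratio 1.03, 95% interval 0.71 to 1.37). NCL, nucleolin, was at 991, 1329, 1375 and 1233 CPM, and NPM1, nucleophosmin, at 198, 286, 308 and 377 CPM. All 3 LPS libraries stood above no LPS for NCL and NPM1, while MYC, the growth regulator, was at 115, 127, 132 and 123 CPM. Survival genes had medians of 0.42, 0.65 and -0.08, with 4 of 9, 3 of 9 and 0 of 7 past 2-fold. Of all genes 1.47%, 2.38% and 1.7% rose past 2-fold at the 3 times, the shares to set beside these list counts. Homing and quiescence genes had medians of -0.10, -0.06 and -0.32 over 13 genes. None passed 2-fold, a count near the shares of all genes and so no result about the list. CXCR4, the receptor for CXCL12, was at 931, 658, 908 and 721 CPM. TXNIP, an inhibitor of glucose uptake, was at 146, 94.0, 74.4 and 114 CPM, lowest at 4 h.

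The LPS receptor was barely seen. TLR4 had 3, 3, 6 and 1 UMIs in the 4 sums, with the library at 8 h under the 3 UMIs taken as a floor. Its partner LY96 had 37, 27, 17 and 7 UMIs (30.6, 38.4, 25.8 and 29.7 CPM). The related pair CD180 and LY86 was at 43.0, 35.6, 39.5 and 25.4 CPM and 137, 141, 117 and 110.2 CPM. MYD88, the adaptor of most Toll-like receptors, was at 69.5, 65.5, 47.1 and 59.3 CPM. Of 8 receptor list genes tested at 2 h 0 passed 2-fold in either direction, and at 4 h and 8 h 0 of 8 and 0 of 6 did. Of all genes 0.548% to 3.34% passed it in a given direction, so these counts are no result about the list.

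The lowest ratios belonged to genes of several kinds. PXK, a PX-domain kinase-like protein, was at 80.3, 45.6, 16.7 and 63.6 CPM, with its lowest level at 4 h (log2 ratio -2.20, 95% interval -3.31 to -1.36). ACP5, tartrate-resistant acid phosphatase, was at 142, 78.3, 60.8 and 42.4 CPM and was among the 10 lowest ratios at 2 h, 4 h and 8 h (-0.85, -1.21 and -1.72). LBH, a transcription cofactor, was at 88.6, 71.2, 30.4 and 50.9 CPM, and ADD3, a cytoskeletal adducin, at 155, 129.6, 60.8 and 148 CPM, and both were lowest at 4 h. CCL2, with UMIs in T cells as well, was among them at each time. At 2 h TMC6, DIDO1, PLEKHO1, ANTKMT, WDR73 and FCGRT had ratios between -1.12 and -0.79. At 4 h CXCL5, CAPG, PDE3B, NUPR2 and CALCOCO1 had ratios between -1.48 and -1.22.

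At 8 h the changes rested on 45 cells. VIM, the intermediate filament vimentin, was at 385, 369, 205 and 114 CPM, an 8 h ratio of -1.74 (95% interval -2.37 to -1.19). HSPB1, a small heat shock protein, was at 166, 149.5, 103 and 55.1 CPM (log2 ratio -1.58, 95% interval -2.53 to -0.79). Both were lower at each later LPS time. S100A11 and ANXA2, calcium-binding proteins, had 8 h ratios of -1.56 and -1.48, which turned to 0.92 and 1.02 without the upper limit on genes. MZB1 and JCHAIN, both of antibody-secreting cells, had the 2 lowest ratios (-4.47 and -2.92). MZB1 at 8 h lay under the 3 UMIs taken as a floor. The ratios of MZB1 and JCHAIN were -1.54 and -0.24 without the JCHAIN- or CXCL8-rich cells, of which the 8 h library held 0. These ratios turned to 1.15 and 1.96 without the upper limit on genes. ND3, a mitochondrial subunit of respiratory complex I, was at 675, 776, 773 and 1602 CPM (log2 ratio 1.24, 95% interval 1.07 to 1.42). NDUFB1, a nuclear subunit of the same complex, was at 70.4, 74.0, 100.3 and 157 CPM, and POLR2L, a shared RNA polymerase subunit, at 158, 198, 231 and 326 CPM. AFG3L2 and SSRP1 also had high ratios, of 1.0 and 1.0, and UTP3 and CNIH1 low ones, of -1.61 and -1.61. TMM factors lowered the 8 h ratios and left 24 genes with a rise past 2-fold, against 57. The rises of POLR2L, AFG3L2 and SSRP1, close to 2-fold, thus rest on the scaling.

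From 4 h to 8 h the leading interferon genes had lower values. ISG15 changed by -3.41 on the log2 scale, MX2 by -1.90 and IRF7 by -1.80, all 3 among the 10 lowest ratios. SLC4A7, a bicarbonate transporter, was at 256, 171, 164 and 343 CPM and had the highest ratio,  1.06. EMD (emerin), MYH9 (a non-muscle myosin) and ROCK1 (a protein kinase), which act on the cell's framework, had ratios of 1.06, 0.98 and 0.89.

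The second question was how these cells differed from FCRLA-positive resting B cells, which met the same rule but with no VPREB3 UMI and at least 1 FCRLA UMI (590 cells, 220, 172, 139 and 59 by library). UMIs were summed for each class in each library, and the 4 libraries served as 4 pairs in edgeR's quasi-likelihood test with library as a block and Benjamini-Hochberg adjustment. All 4 libraries came from 1 pool of blood, so p-values measure agreement between libraries and not between animals. The VPREB3-positive cells were the shallower class, with median depths of 3258 to 4725 UMIs against 4151.5 to 6980. B cells inside the CD83 limit with both VPREB3 and FCRLA UMIs belonged to neither class. They numbered 342, 164, 155 and 60, against 309, 164, 136 and 45 VPREB3-positive cells, so the 2 classes do not divide all CD83-low B cells. Median depths of the cells with both were 5118, 4874, 5582 and 6206 UMIs. The VPREB3-positive cells also had a lower median mitochondrial share, at most 2.09% against 2.66% to 2.80%. The part of either in the differences below was not tested.

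Of 5954 genes tested, 687 were higher in VPREB3-positive cells (11.5%) and 650 lower (10.9%). Of these, 506 and 628 had the same direction in 4 of 4 libraries, and 157 and 208 were past 2-fold. Without the 2 h library 425 and 508 passed the same threshold, without no LPS 451 and 443, without 4 h 452 and 550, and without 8 h 671 and 726. When each cell was reduced to 1000 UMIs before the rule was applied, which left 9 to 75 cells a library, 47 and 58 of 379 genes passed, and 27 of 212 genes called above and tested there had the opposite direction.

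PKIG led the 15 largest differences toward VPREB3-positive cells. This inhibitor of cAMP-dependent protein kinase was at 103, 79.7, 146 and 123 CPM in VPREB3-positive cells and 8.60, 8.75, 17.2 and 23.0 CPM in FCRLA-positive cells (log2 difference 3.28 ± 0.20 SE, edgeR adjusted p = 1.6e-08). RETREG1, a receptor that marks endoplasmic reticulum for autophagy, was at 268, 224, 214 and 208 against 51.6, 27.5, 36.8 and 25.3 CPM (log2 difference 2.82 ± 0.14 SE, edgeR adjusted p = 7.4e-10). FXYD6, a regulator of the sodium pump, was at 85.3, 49.8, 100.3 and 148 against 13.8, 0, 23.3 and 2.30 CPM (log2 difference 3.15 ± 0.33 SE, edgeR adjusted p = 3.1e-06). For all 3 the lowest VPREB3-positive level exceeded the highest FCRLA-positive level. AGPAT2, an acyltransferase of lipid synthesis, was at 114, 129.6, 135 and 131 against 23.2, 17.5, 44.1 and 25.3 CPM (log2 difference 2.39 ± 0.18 SE, edgeR adjusted p = 1.2e-07). RGS1, which shortens chemokine receptor signals, was at 44.7, 48.4, 88.1 and 63.6 against 17.2, 12.5, 30.7 and 13.8 CPM (log2 difference 1.81 ± 0.20 SE, edgeR adjusted p = 5.7e-06). FCER2, the low-affinity IgE receptor CD23, was at 56.3, 103, 109 and 67.8 against 28.4, 16.2, 52.7 and 25.3 CPM (log2 difference 1.60 ± 0.23 SE, edgeR adjusted p = 5.4e-05). Each stood higher in the VPREB3-positive cells in 4 of 4 libraries, which the choice of the 15 required. The smallest gap was in the no LPS library for FCER2 and in 4 h for AGPAT2. SNX29, RNASE6, ZMIZ2, DNAAF4 and GGT5 differed by 1.72 to 1.84. JCHAIN, FKBP11 and TXNDC5, genes of secretory cells, were also among the 15, but without the JCHAIN- or CXCL8-rich cells their differences were 0.25 (edgeR adjusted p = 0.38), 0.88 (edgeR adjusted p = 2.5e-04) and 0.02 (edgeR adjusted p = 0.96).

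On the other side, CMTM3, a MARVEL-domain membrane protein, was at 133, 137, 103 and 84.8 CPM in VPREB3-positive and 1336, 1455, 1003 and 813 CPM in FCRLA-positive cells (log2 difference -3.14 ± 0.10 SE, edgeR adjusted p = 2.2e-12). HOPX, a homeodomain protein that does not bind DNA itself, was at 37.2, 28.5, 28.9 and 21.2 against 309, 357, 259 and 170.0 CPM (log2 difference -3.04 ± 0.14 SE, edgeR adjusted p = 2.0e-10). TBX21 (T-bet), a transcription factor of type 1 responses and of some memory B cells, was at 3.31, 12.8, 3.04 and 8.48 against 73.9, 88.7, 50.3 and 68.9 CPM (log2 difference -3.33 ± 0.28 SE, edgeR adjusted p = 3.2e-07). For these 3 genes the highest VPREB3-positive level lay under the lowest FCRLA-positive level. CD5, a brake on antigen receptor signals, was at 13.2, 8.54, 7.59 and 17.0 against 72.2, 96.2, 38.0 and 48.3 CPM (log2 difference -2.41 ± 0.25 SE, edgeR adjusted p = 2.5e-06). CD55, which protects cells from complement, was at 38.9, 47.0, 27.3 and 25.4 against 252, 215, 146 and 122 CPM (log2 difference -2.26 ± 0.14 SE, edgeR adjusted p = 1.8e-08). AOAH, the enzyme that inactivates LPS by removing its fatty acids, was at 15.7, 5.70, 12.2 and 4.24 against 73.1, 65.0, 55.2 and 23.0 CPM (log2 difference -2.27 ± 0.24 SE, edgeR adjusted p = 3.5e-06). CFD, complement factor D, was at 25.7, 17.1, 13.7 and 8.48 against 120.3, 98.7, 72.4 and 36.8 CPM. GPAT2, SLC9B2, LITAF, CMTM8, ARHGEF10L, MAP4K3, IER5L and ZBTB32 differed by -4.72 to -2.12.

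**Figure D4:**
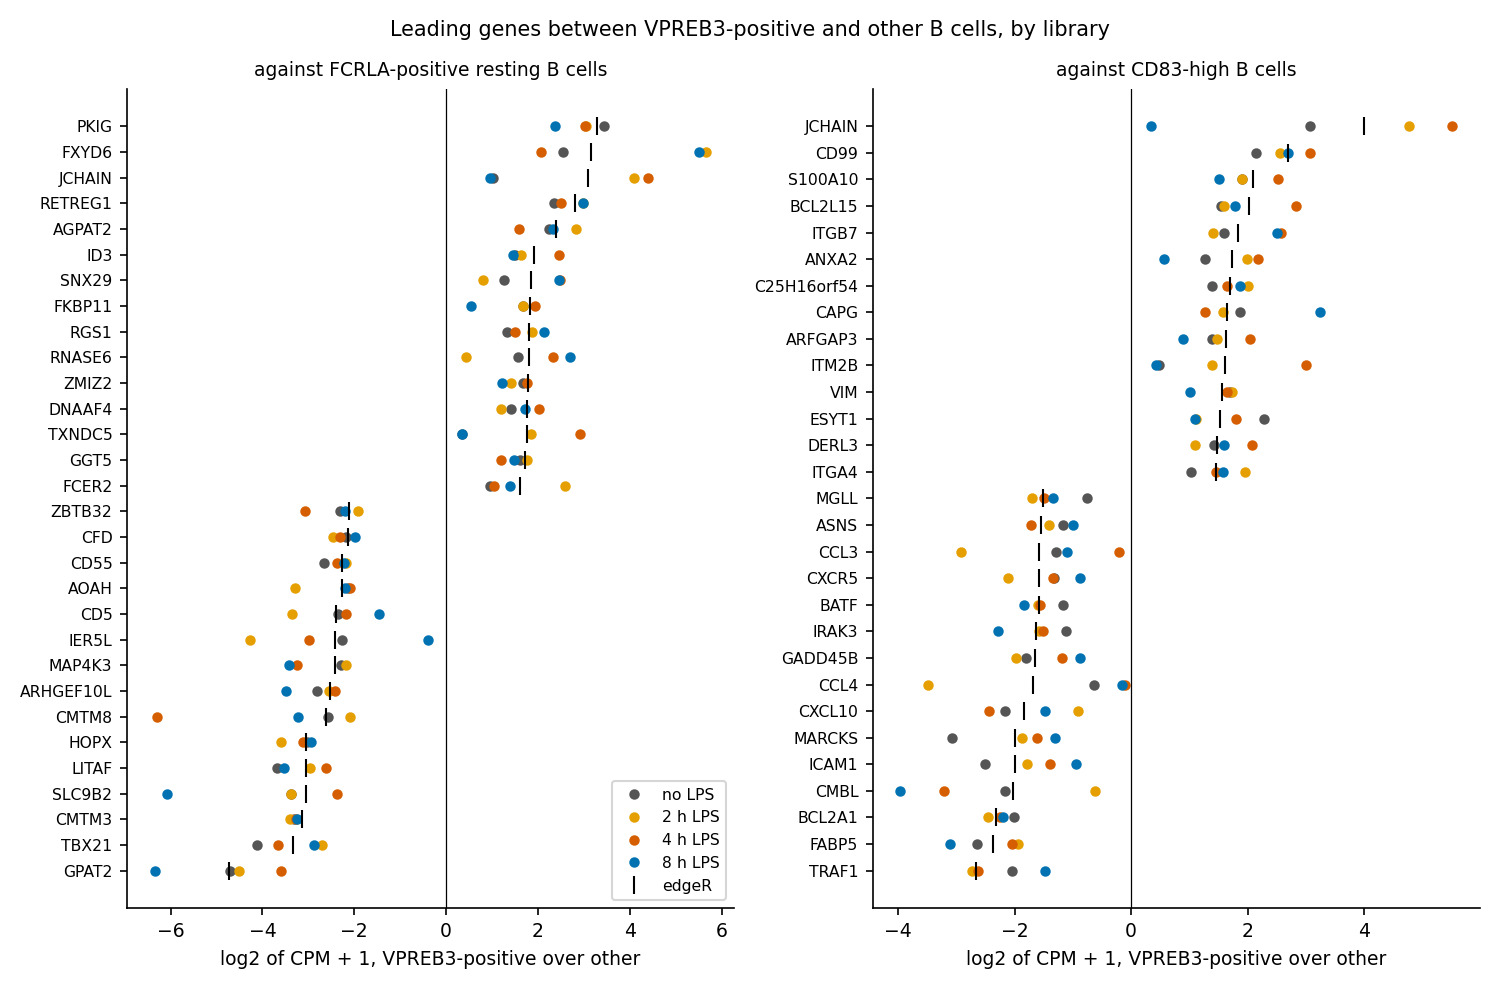
Log2 ratio of CPM + 1 in VPREB3-positive resting B cells over FCRLA-positive resting B cells (left) and over CD83-high B cells (right) for the leading genes each way (15 on the left, 14 higher and 15 lower on the right), with 1 coloured dot for each library and a black bar for the edgeR estimate over the 4 libraries. The genes were chosen for the same direction in all 4 libraries, so all dots lie on the side of the estimate. Estimates run from 3.28 for PKIG to -4.72 for GPAT2 on the left. JCHAIN is spread widest among the higher genes on the right.

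By role, receptor signalling genes leaned lower in VPREB3-positive cells. Of 23 genes of B cell receptor signalling tested, 3 were higher and 7 lower, with a median of -0.26 beside 0.02 over all genes. Among all genes 11.5% were higher and 10.9% lower than in FCRLA-positive cells, the shares to set beside the list counts that follow. LYN was at 616, 634, 533 and 389.9 CPM against 906, 1151, 963 and 673 CPM in FCRLA-positive cells (log2 difference -0.58 ± 0.09 SE, edgeR adjusted p = 1.6e-04). SYK was at 101, 112, 88.1 and 76.3 against 152, 205, 153 and 184 CPM (log2 difference -0.62 ± 0.12 SE, edgeR adjusted p = 0.0012). VAV1, PIK3CD, PRKCB, DOK3 and CD53, further signalling and membrane proteins, differed by -1.32 to -0.56. CR2 went the other way, at 20.7, 48.4, 65.3 and 33.9 against 6.02, 7.5, 22.1 and 11.5 CPM (log2 difference 2.04 ± 0.26 SE, edgeR adjusted p = 2.2e-05). The tetraspanins CD37 and CD81 were higher by 0.35 and 0.31, CD37 turning to -0.00076 when each cell was reduced to 1000 UMIs.

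Receptors for LPS and nucleic acids were 0 higher and 4 lower of 15. LY86 was at 137, 141, 117 and 110.2 against 410.0, 397, 331 and 308 CPM (log2 difference -1.34 ± 0.10 SE, edgeR adjusted p = 7.1e-08). Its partner CD180 differed by -0.77 (edgeR adjusted p = 0.0041), MYD88 by -0.58 (edgeR adjusted p = 0.0057) and TLR10 by -1.25 (edgeR adjusted p = 0.016). LY96, the partner of TLR4, did not pass the test (0.16, edgeR adjusted p = 0.66).

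Transcription factors differed both ways, with 9 of 24 higher and 5 lower and a median of 0.36. ETS1, which holds B cells back from plasma cell differentiation, was at 548, 497, 510.4 and 678 against 287, 246, 237 and 237 CPM (log2 difference 1.30 ± 0.10 SE, edgeR adjusted p = 1.9e-07). ID3, an inhibitor of E proteins, was at 192, 164, 179 and 203 against 67.0, 52.5, 31.9 and 73.5 CPM (log2 difference 1.92 ± 0.15 SE, edgeR adjusted p = 1.4e-07). FOXO1, a factor of resting lymphocytes, was at 32.3, 31.3, 30.4 and 42.4 against 12, 23.7, 18.4 and 6.89 CPM (log2 difference 1.22 ± 0.27 SE, edgeR adjusted p = 0.0036). The VPREB3-positive cells were the higher class in 4 of 4 libraries for these 3, which for ID3 the choice of the leading genes required. FOXP1, TCF3, POU2AF1, IRF4, MEF2C and ELL3 were higher by 0.48 to 1.07, IRF4 by 0.51 (edgeR adjusted p = 0.069) without the JCHAIN- or CXCL8-rich cells. TCF4, another E protein, was at 99.3, 95.4, 95.7 and 76.3 against 181, 239, 264 and 177 CPM (log2 difference -1.01 ± 0.12 SE, edgeR adjusted p = 1.0e-05), and ZBTB32, BHLHE41, SPI1 and SPIB were also lower.

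Homing and quiescence genes were 11 higher and 2 lower of 16, with a median of 0.79. CXCR4 was at 931, 658, 908 and 721 against 375, 301, 493 and 448 CPM (log2 difference 1.2 ± 0.11 SE, edgeR adjusted p = 7.8e-07). LTB, lymphotoxin beta of lymphoid tissue organisation, was at 252, 295, 395 and 267 against 102, 129, 139.8 and 149 CPM (log2 difference 1.43 ± 0.11 SE, edgeR adjusted p = 1.4e-07). S1PR1, which lets lymphocytes leave tissue, was at 20.7, 25.6, 21.3 and 38.1 against 16.3, 11.2, 4.91 and 6.89 CPM (log2 difference 1.31 ± 0.34 SE, edgeR adjusted p = 0.0088). For each of the 3 the level in VPREB3-positive cells exceeded that in FCRLA-positive cells in all 4 libraries. CCR7, CXCR5, GPR183, ITGA4, ITGB7, BTG1 and TSC22D3 were higher by 0.59 to 1.19, CCR7 turning to -0.31 when each cell was reduced to 1000 UMIs, and ITGAL was lower with CD55.

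Of 16 genes of memory and past activation, 3 were higher (CD27, ITGB1 and S100A10) and 5 lower (TBX21, FCRL5, CD86, AHNAK and FAS). ITGB1 and S100A10 did not pass without the JCHAIN- or CXCL8-rich cells (edgeR adjusted p = 0.22 and 0.088). FCRL5, a receptor that restrains B cell signals, was at 11.6, 15.7, 12.2 and 8.48 against 37.8, 45.0, 39.2 and 55.1 CPM (log2 difference -1.55 ± 0.24 SE, edgeR adjusted p = 1.7e-04). CD27, a costimulatory receptor, was at 48.8, 48.4, 41.0 and 42.4 against 18.1, 17.5, 41.7 and 23.0 CPM (log2 difference 1.1 ± 0.25 SE, edgeR adjusted p = 0.0036), with 4 h the library where the classes met. AHNAK, a large scaffold protein, was at 175, 149.5, 82.0 and 76.3 against 412, 511, 307 and 218 CPM (log2 difference -1.39 ± 0.12 SE, edgeR adjusted p = 3.1e-07). The list thus held members on both sides, with a median of -0.22.

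Growth and ribosome synthesis genes were 17 higher and 2 lower of 23, with a median of 0.51. MYC was at 115, 127, 132 and 123 against 49.9, 41.2, 65.0 and 75.8 CPM (log2 difference 1.35 ± 0.15 SE, edgeR adjusted p = 6.0e-06). ODC1, the first enzyme of polyamine synthesis, was at 264, 456, 202 and 157 against 145, 129, 76.0 and 101 CPM (log2 difference 1.43 ± 0.16 SE, edgeR adjusted p = 4.4e-06). The 2 lower were glycolytic, ENO1 (-0.39) and LDHA (-0.91). NCL differed by 0.51, and by -0.019 when each cell was reduced to 1000 UMIs.

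Interferon-stimulated genes were 4 higher and 14 lower of 46, with a median of -0.21. MX2 was at 73.7, 134, 603 and 161 against 195, 276, 1175 and 237 CPM (log2 difference -0.85 ± 0.12 SE, edgeR adjusted p = 5.1e-05). IFI6, a mitochondrial interferon-induced protein, was at 102, 111, 309.9 and 153 against 189, 239, 578 and 244 CPM (log2 difference -0.73 ± 0.10 SE, edgeR adjusted p = 3.7e-05). Both were lower in VPREB3-positive cells already without LPS. ISG15 did not pass the test (0.04 ± 0.13 SE, edgeR adjusted p = 0.87), at 149.8, 826, 2992 and 279.7 against 168, 639.9, 3662 and 437 CPM. IRF1, IRF7 and EPSTI1 were among the 4 higher, by 0.39 to 0.76. Over time the list median at 4 h was 1.47 in VPREB3-positive and 1.85 in FCRLA-positive cells over the 40 genes tested in both, a difference with no replicate check.

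NF-kB targets were 8 higher and 3 lower of 29. CD40 was at 90.2, 305, 185 and 114 against 41.3, 129, 83.4 and 64.3 CPM (log2 difference 1.33 ± 0.12 SE, edgeR adjusted p = 6.9e-07). NFKB2, the p100 subunit, was at 139.9, 243, 231 and 216 against 65.3, 165, 112 and 96.5 CPM (log2 difference 1.11 ± 0.12 SE, edgeR adjusted p = 2.9e-06). REL, RELB, NFKBIE, BIRC3, GADD45B and CCR7 were the others higher. BATF was lower by far, at 74.5, 168, 122 and 76.3 against 376, 589, 454 and 324 CPM (log2 difference -1.83 ± 0.12 SE, edgeR adjusted p = 1.8e-08). CCL3 differed by -1.11, but by 0.63 without the JCHAIN- or CXCL8-rich cells of all classes.

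Smaller lists followed. Survival genes were 3 higher and 1 lower of 10. BCL2, which blocks apoptosis, was at 41.4, 41.3, 65.3 and 29.7 against 18.9, 18.7, 29.4 and 9.19 CPM (log2 difference 1.36 ± 0.20 SE, edgeR adjusted p = 8.7e-05), and BAX, which drives it, at 75.3, 45.6, 68.4 and 72.1 against 123, 111, 120.2 and 145 CPM (log2 difference -0.72 ± 0.14 SE, edgeR adjusted p = 8.3e-04). BCL2 was thus higher and BAX lower in all 4 libraries. Cytokine receptor genes were 5 higher (IL4R, IL21R, IL2RG, JAK1 and STAT6) and 1 lower (CISH) of 17. CISH, an inhibitor of cytokine signals, had 1, 5, 6 and 0 UMIs in VPREB3-positive cells, and 28.4, 37.5, 29.4 and 39.1 CPM in FCRLA-positive cells (log2 difference -2.66 ± 0.42 SE, edgeR adjusted p = 1.8e-04). MHC class II genes were 3 higher and 1 lower of 12, with BOLA-DOB at 372, 276, 325 and 365 against 252, 194, 226 and 184 CPM (log2 difference 0.79 ± 0.10 SE, edgeR adjusted p = 1.6e-05) and BOLA-DMB, of the peptide-loading protein DM, at 238, 242, 155 and 144 against 401, 429, 254 and 287 CPM (log2 difference -0.61 ± 0.10 SE, edgeR adjusted p = 2.0e-04). Immediate early genes were 6 higher and 0 lower of 17, heat shock genes 5 and 0 of 13, cell cycle genes 4 and 1 of 9, and ATF4 and amino acid genes 2 and 3 of 11. Early B cell genes were 2 higher and 1 lower of 4, IL7R (1.45) and the repair enzyme NEIL1 (1.55) against PLD4, a lysosomal nuclease (-1.69). Plasma cell genes were 7 higher and 0 lower of 9, with the few rich cells named above among the summed cells, and SEC11C turned to -0.0066 without them. Of markers of other cells, T cell genes were 2 higher and 2 lower of 4, NK genes 0 and 1 of 2, monocyte genes 2 (CCL2 and S100A12) and 0 of 6, dendritic cell genes 0 and 1 of 2 and platelet or red cell genes 0 and 0 of 1.

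The third comparison set VPREB3-positive resting B cells against CD83-high B cells, which met the same B cell rule with at least 2 CD83 UMIs and with any VPREB3 or FCRLA count (1734 cells, 156, 924, 520 and 134 by library). Of 6303 genes tested the same way, 500 were higher in the VPREB3-positive cells (7.93%) and 639 lower (10.1%), with 454 and 548 in the same direction in 4 of 4 libraries. CD83-high cells were deeper, at median depths of 4790 to 7882.5 UMIs. Without the 4 h library 291 and 423 genes passed. When each cell was reduced to 1000 UMIs before the rule, 0 genes were higher and 1 lower of 295 by edgeR, with 19 at an unadjusted p under 0.05, and 49 of 146 genes called above and tested there had the opposite direction. That reduction left 9 to 75 VPREB3-positive cells a library and fewer genes to test as well as fewer UMIs a cell, and their separate parts in the loss were not tested. The limit on CD83 set the classes apart, and genes induced with CD83 differ by that choice.

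CD99, a cell adhesion protein, was at 51.3, 66.9, 47.1 and 46.6 CPM in VPREB3-positive and 10.8, 10.5, 4.77 and 6.36 CPM in CD83-high cells (log2 difference 2.69 ± 0.23 SE, edgeR adjusted p = 1.1e-07). VIM was at 385, 369, 205 and 114 against 118, 111, 64.6 and 56.4 CPM (log2 difference 1.56 ± 0.11 SE, edgeR adjusted p = 1.2e-08). ITGB7, an integrin of gut homing, was at 70.4, 65.5, 56.2 and 50.9 against 22.7, 24.1, 8.64 and 8.18 CPM (log2 difference 1.83 ± 0.22 SE, edgeR adjusted p = 7.3e-06). The higher level was in VPREB3-positive cells in each library for all 3, as the choice of the leading genes required. S100A10, BCL2L15, ANXA2, C25H16orf54, CAPG, ARFGAP3, ESYT1, DERL3 and ITGA4 were higher by 1.46 to 2.10. Without the JCHAIN- or CXCL8-rich cells BCL2L15 fell from 2.03 to 0.84, ANXA2 from 1.74 to 0.95 and ARFGAP3 from 1.63 to 0.93, and each still passed. JCHAIN and ITM2B led as well, but did not pass without the JCHAIN- or CXCL8-rich cells (0.40, edgeR adjusted p = 0.15, and 0.44, 0.11). Homing genes were 8 higher and 1 lower of 15 with a median of 0.63, the lower being CXCR5, the receptor that leads to follicles, at 62.9, 79.7, 94.2 and 93.2 against 159, 346, 241 and 173 CPM (log2 difference -1.58 ± 0.14 SE, edgeR adjusted p = 2.3e-07). Of 25 transcription factors 7 were higher, among them ID3 (1.31), ETS1 (0.80) and MEF2C (0.60), and 2 lower (IRF4 and FOXP1, the latter lost without the same cells, edgeR adjusted p = 0.13). CIITA, the master regulator of MHC class II, was at 57.1, 45.6, 41.0 and 63.6 against 22.7, 16.6, 20.3 and 30.0 CPM (log2 difference 1.17 ± 0.19 SE, edgeR adjusted p = 1.3e-04).

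Lower in VPREB3-positive than in CD83-high cells were 23 of 33 NF-kB targets, 0 being higher, with a median of -0.70 beside 0.00 over all genes. BCL2A1 was at 126, 564, 275 and 119 against 512, 3091, 1307 and 551 CPM (log2 difference -2.31). TRAF1, a signalling adaptor, was at 5.79, 18.5, 6.08 and 8.48 against 27.1, 129, 42.9 and 25.5 CPM (log2 difference -2.66). Since CD83, which NF-kB also induces, separated the classes, this list is a description with no test read from it. FABP5, a fatty acid-binding protein, was at 26.5, 42.7, 69.9 and 25.4 against 171, 167, 290.4 and 226 CPM (log2 difference -2.37 ± 0.15 SE, edgeR adjusted p = 1.8e-09). MARCKS, a substrate of protein kinase C, was at 8.28, 107, 79.0 and 33.9 against 76.9, 393, 245 and 85.4 CPM (log2 difference -1.99 ± 0.16 SE, edgeR adjusted p = 9.0e-08). CXCL10, a chemokine of interferon responses, was at 16.6, 92.6, 98.7 and 72.1 against 78.0, 174, 540.4 and 202 CPM (log2 difference -1.84 ± 0.18 SE, edgeR adjusted p = 5.6e-07). CMBL, ICAM1, GADD45B, IRAK3, BATF, ASNS and MGLL differed by -2.03 to -1.52, and CCL3 and CCL4 lost the call without the JCHAIN- or CXCL8-rich cells (edgeR adjusted p = 0.21 and 0.093). PKIG, higher than in FCRLA-positive cells, was lower than in CD83-high cells, at 103, 79.7, 146 and 123 against 208, 236, 346 and 145 CPM (log2 difference -1.18 ± 0.14 SE, edgeR adjusted p = 3.9e-06). CR2 was likewise between the 2 classes, with a log2 difference to CD83-high cells of -1.03 (edgeR adjusted p = 1.3e-04).

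Against CD83-high cells 7.93% of all genes were higher and 10.1% lower, the shares to set beside the list counts. Growth and ribosome synthesis genes were 0 higher and 18 lower of 24 with a median of -0.66. NPM1 was at 198, 286, 308 and 377 against 354, 435, 495 and 465 CPM (log2 difference -0.68 ± 0.10 SE, edgeR adjusted p = 3.9e-05). Heat shock genes were 1 higher and 7 lower of 13, and survival genes 0 and 4 of 10. Interferon-stimulated genes were 4 higher and 5 lower of 47, with a median of 0.05. These counts are near the shares of all genes, so they are no result about the list. ISG15 was at 149.8, 826, 2992 and 279.7 against 132, 2703, 4575 and 431 CPM (log2 difference -0.82 ± 0.17 SE, edgeR adjusted p = 0.0016), the widest gap being at 2 h. B cell receptor signalling genes were 4 higher and 3 lower of 23, MHC class II genes 4 and 1 of 13, memory genes 5 and 3 of 13, LPS and nucleic acid receptors 0 and 2 of 12, immediate early genes 2 and 4 of 18, cytokine receptors 0 and 2 of 17, ATF4 and amino acid genes 0 and 3 of 14, cell cycle genes 2 and 1 of 8, early B cell genes 0 and 0 of 4 and plasma cell genes 6 and 2 of 10. Markers of T cells were 2 higher and 0 lower of 4, of NK cells 0 and 1 of 3, of monocytes 0 and 0 of 10, of dendritic cells 0 and 1 of 2 and of platelets and red cells 1 (HBB) and 0 of 1.

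**Figure D5:**
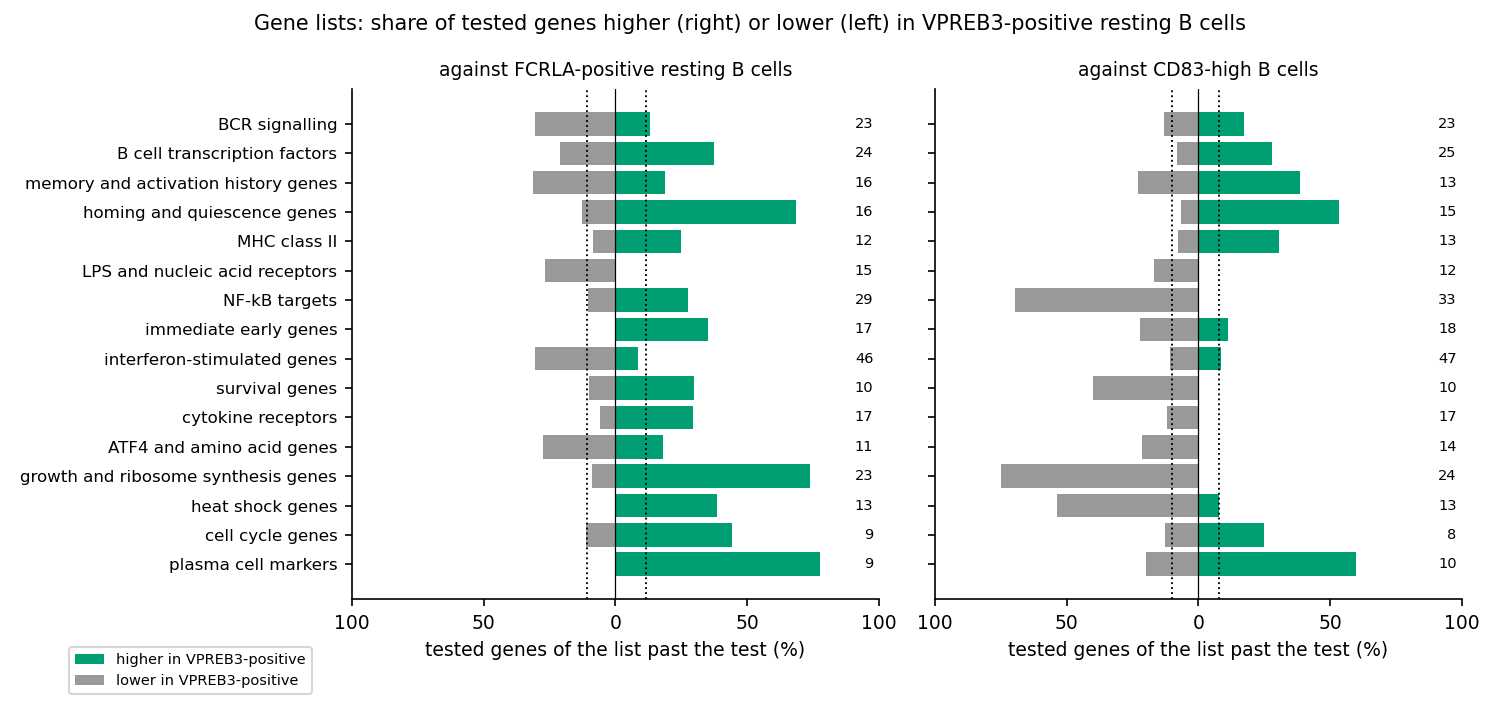
Share of the tested genes of each list (%, number tested at the right) that were higher (green, to the right) or lower (grey, to the left) in VPREB3-positive resting B cells than in FCRLA-positive resting B cells (left panel) or CD83-high B cells (right panel), by edgeR adjusted p under 0.05. Dotted lines give the share over all genes tested, 11.5% higher and 10.9% lower on the left, 7.93% and 10.1% on the right; growth and ribosome synthesis genes were 17 of 23 higher on the left and 18 of 24 lower on the right.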

How the data were processed

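The authors deposited, for each scRNA-seq library, a table of UMI counts per gene and barcode, which they made with Cell Ranger from 10x Genomics libraries against the cattle genome (the submitters' processing notes name ARS-UCD 1.2 and bosTau 9). The scATAC-seq data of the same parts were not used here. Barcodes with 200 to 3000 genes were kept. No doublet caller was run. Members, gene lists and tests were chosen with earlier results of these data known.

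UMIs were summed over the cells of a class in each library and divided by the sum to give CPM. Ratios between LPS times are log2 of CPM + 1 with exact Poisson 95% intervals, among genes with at least 50 UMIs over both libraries. Shares carry exact Clopper-Pearson intervals. Intervals and the floor of 3 counts cover counting error only. Classes were compared over the 4 libraries by the quasi-likelihood test of edgeR 4.0.16 (R 4.3.3) with TMM factors, its filter on low counts and library as a block, with Benjamini-Hochberg adjustment at 0.05. Both classes of a library come from the same blood, which gives the block, and the labels give no further replicates, so these p-values measure only the spread between 4 libraries of 1 blood pool. The 8 genes of the rule were left out of counts. To compare cells at 1 depth, each was drawn without replacement to 1000 UMIs.

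Named were members of the lists, the markers of the cells, for each time the 10 highest and 10 lowest ratios of genes holding 100 UMIs or more, and the 15 largest differences each way with an adjusted p under 0.05, the same direction in 4 of 4 libraries and at least 200 UMIs. Alternatives changed the cell rule, scaling, pseudocount, count minimum, block and test (DESeq2 1.42.0), or left out each library. The scripts (Python 3.11.15, numpy 2.4.6, scipy 1.17.1, pandas 2.3.3) were tested on simulated data. Genes without a symbol in the tables were tested and are not named, and some results are not reported here.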

Additional observations from a re-analysis of the deposited data

Results flagged for a closer look

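Among the 59 leading genes of the comparisons between classes, 4 had 1 of the 4 libraries far from the other 3. Chance flags about 1 in 20 groups, a rate near this count, so the 4 are given as a description. The log2 ratio of ID3 in VPREB3-positive over FCRLA-positive resting B cells was 2.45 at 4 h and 1.46 to 1.62 in the other libraries. The ratio of AOAH over the same cells was -3.30 at 2 h and -2.19 to -2.09 elsewhere. Over CD83-high B cells, VIM was at 1.01 at 8 h against 1.65 to 1.72 and CCL4 at -3.48 at 2 h against -0.64 to -0.10. The CCL4 difference lost its call without the JCHAIN- or CXCL8-rich cells (-0.73, edgeR adjusted p = 0.093). The 59 genes were chosen for the same direction in 4 of 4 libraries, so the odd library could not differ in direction.

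For 2 genes the ratio to no LPS was past 2-fold in opposite directions in VPREB3-positive and FCRLA-positive resting B cells, a difference that was not tested. JCHAIN was at 1.17 at 2 h and 1.97 at 4 h in VPREB3-positive cells, against -1.90 and -1.42 in FCRLA-positive cells. At 2 h and 4 h, 4 and 3 cells held 97.3% and 97.9% of its UMIs in VPREB3-positive cells, and without the JCHAIN- or CXCL8-rich cells its ratios there were -1.14 and -0.83. CCL4, a chemokine, was at -1.0 at 4 h against 2.34.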

How the results depend on the processing

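Of 834 values of named genes by time under an alternative, 744 moved by less than their counting interval and 14 changed sign. Of 3308 values of genes between classes, 2777 kept their direction and call, 522 lost the call and 9 changed sign. The cause was not tested. The share of barcodes was 2.73%, 0.999% and 1.25% without LPS, at 2 h and at 4 h with at least 2 VPREB3 UMIs, 4.65%, 5.11%, 4.23% and 2.41% with no CD83 limit, and 1.02%, 0.487%, 0.450% and 0.296% at 1000 UMIs per cell. Counts of genes past 2-fold changed with the count minimum, and so did the genes tested, 4011, 3945 and 3353 in the main result. At 10 UMIs 281, 328 and 493 rose and 335, 477 and 715 fell at 2 h, 4 h and 8 h. These were of 7661, 7599 and 7201 genes. At 200 UMIs 18, 26 and 4 rose and 3, 10 and 16 fell, of 1156, 1123 and 819. At 1000 UMIs per cell 4, 4 and 4 rose and 6, 6 and 11 fell, of 258, 225 and 185. A pseudocount of 10 CPM left 6, 28 and 59 falls and 25 rises at 8 h. With no CD83 limit 254 and 168 rose and 220 and 144 fell at 2 h and 4 h, of 5636 and 5180. With no upper limit on genes 149 rose and 57 fell of 4646 at 2 h, and 135 of 3934 rose at 8 h. Mean CPM per cell gave 34 falls at 2 h, and VPREB3 of at least 2 gave 44 falls of 3019 at 4 h. TMM or DESeq2 factors gave 24 or 35 rises at 8 h. The NF-kB median at 2 h was 0.47 with no upper limit on genes and 1.28 with no CD83 limit. The interferon median at 4 h, 1.47 over 40 genes, was 0.82 over 17 genes at 200 UMIs. At 1000 UMIs per cell it was 0.57, where only 3 genes were tested. At 8 h it was 0.64 with VPREB3 of at least 2. Survival medians, 0.42 and 0.65 over 9 genes at 2 h and 4 h, turned to -0.022 and -0.45 at 1000 UMIs per cell, where 1 gene was tested. Plasma cell medians turned to -0.042 at 4 h at that depth, also on 1 gene, to -0.14 at 4 h without the JCHAIN- or CXCL8-rich cells and to 1.16 at 8 h with no upper limit on genes.

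Between VPREB3-positive and FCRLA-positive cells, DESeq2 called 277 and 311 of 12498 genes, and edgeR without the library block 373 and 384 of 5954. At 1000 UMIs per cell 47 and 58 of 379 passed. Leaving out each library gave 425 to 671 and 443 to 726. Against CD83-high cells DESeq2 called 200 and 382 of 13086, and edgeR without the block 158 and 128 of 6303. At 1000 UMIs per cell 0 and 1 of 295 passed, and leaving out each library gave 291 to 462 and 423 to 580. At 1000 UMIs per cell CD37 (-0.00076), CCR7 (-0.31) and NCL (-0.019) turned against FCRLA-positive cells, and BOLA-DOB (-0.25), IFI30 (0.31) and HSP90AA1 (0.015) against CD83-high cells. Without the JCHAIN- or CXCL8-rich cells SEC11C turned in both (-0.0066 and -0.11), as did CCL3 against FCRLA-positive cells (0.63), CXCL2 at 2 h (-0.038), JCHAIN at 4 h (-0.83) and CXCL8 from 4 h to 8 h (0.61, and 0.35 with no CD83 limit). With no upper limit on genes MZB1, JCHAIN, S100A11 and ANXA2 turned at 8 h (1.15, 1.96, 0.92 and 1.02), as did MZB1, JCHAIN, TXNDC5, ITM2B, MANF and ANXA2 from 4 h to 8 h (0.18, 0.93, 0.33, 0.054, 0.040 and 0.44). At 1000 UMIs per cell VPREB3 was in 0.155%, 0.0554%, 0.100% and 0.427% of T cells and in 1.66%, 0% and 1.79% of monocytes without LPS, at 4 h and at 8 h. At 2000 UMIs per cell, 5.54% of VPREB3-positive cells without LPS held 10 interferon-stimulated UMIs per 1000. No paired analysis was possible between LPS times because each has 1 library.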
